A study of Mus musculus with 4 samples.

Results

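Genes of the unfolded protein response and the integrated stress response were followed as a set of 41 genes chosen by symbol. The choice was made with earlier results of these data known, so counts beside those of all genes are a description. All 41 were among the 24411 genes listed, and all 41 reached 1 TPM (a transcript level scaled for transcript length and for the size of the library) in at least 1 library. The set was described in 2 parts. The ATF4 side has 22 genes, from Atf4 to Wars, and the ER chaperone side has 19 genes, from Hspa5 to Sel1l. For tests, a gene had to reach 1 TPM in at least 2 libraries, which 40 of the 41 genes did, among 11167 genes in all. Vldlr, a lipoprotein receptor gene, was the exception, with 2.39 TPM in control 1 and a listing at 0 in the other libraries.

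The data were poly(A) RNA-seq profiles of cultured 4T1 cells, a mouse mammary carcinoma line, with 2 control libraries and 2 libraries labelled CD95ko. Per the labels' protocols, the CD95ko lines are single-cell clones of 4T1 cells that carry a blasticidin-selected Cas9 lentivirus and received a pair of guide RNAs to delete an exon of the CD95 gene (symbol Fas, the receptor of Fas ligand). The protocols name an untransduced culture and the Cas9 line beside the clones, but the sample titles do not tell which of these each control is. Each CD95ko library is 1 clone, so the deletion and other differences of a clone cannot be told apart. The comparison asks which transcripts differ when CD95 has been disrupted.

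Fas was listed at 49.4 and 39.2 TPM in the controls, at 15.8 TPM in the library labelled CD95ko 1 and at 49.5 TPM in the library labelled CD95ko 2. Gene-level TPM does not separate the deleted exon from the others, so all directions below follow the labels alone. All 6 epithelial markers examined were present, with summed levels of 4549.8 and 4576 TPM in the controls, 8134 TPM in the library labelled CD95ko 1 and 12436 TPM in the library labelled CD95ko 2. Of 5 leukocyte and macrophage markers, the defining Ptprc, Adgre1 and Cd3e were listed at 0 in all 4 libraries. The others, Cd68 and Csf1r, brought the summed level of that list to 45.8 and 42.0 TPM in the controls. The sum was 40.05 TPM in the library labelled CD95ko 1 and 151 TPM in the library labelled CD95ko 2. Of these sums, in the same order, Cd68 held 44.6, 42.0, 17.8 and 146 TPM, and Csf1r 1.22, 0, 22.2 and 5.07 TPM. Of 4 endothelial markers 3 were listed at 0 throughout and Tek reached 0.28 TPM in control 2, all 3 adipocyte markers were listed at 0, and so were 4 of 5 fibroblast markers, with Pdgfra between 0.97 and 3.53 TPM. The part of the epithelial and of the leukocyte and macrophage marker levels in the results below was not tested. TPM carries no read number, so the sequencing depth is unknown.

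The integrated stress response begins with kinases that phosphorylate the initiation factor eIF2 alpha when amino acids run short, when unfolded proteins load the endoplasmic reticulum (ER), or under other stresses. General translation then slows while the transcription factor ATF4 is made, and ATF4 switches on genes for amino acid synthesis, uptake and tRNA charging, together with the factor CHOP. The unfolded protein response has 2 further arms, the nuclease IRE1, which splices Xbp1 messenger RNA, and the membrane-bound factor ATF6, and these raise ER chaperones and the machinery that returns misfolded proteins to the cytosol for degradation. TPM measures transcript level and shows neither eIF2 alpha phosphorylation nor Xbp1 splicing.

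Both parts of the set carry the DNA elements known for these pathways, and the elements are shown as a description. Whether an element has a part in the differences between the libraries was not tested. The ER stress response element was searched on both strands as CCAAT, 9 bases of any kind, then CCACG. It is bound by ATF6 and by XBP1, factors of different arms, together with the CCAAT-binding factor NF-Y. RefSeq promoters (GRCm38.p6, the same build as the mm10 of the deposited tables) of 300 bases, from 250 before to 50 after the start site, were found for 36 of the 41 genes. The element occurred in 8 of 17 ER chaperone side genes, in 0 of 19 ATF4 side genes and in 0.119% of all 32851 promoters in the table. The 9 copies in those 8 genes follow, each 5′ to 3′ along the strand that carries it, with the CCAAT and CCACG blocks in capitals.
Hspa5: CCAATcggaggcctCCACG
Calr: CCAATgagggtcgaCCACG
Hsp90b1 (upstream copy): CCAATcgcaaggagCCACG
Hsp90b1 (downstream copy): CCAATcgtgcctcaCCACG
Canx: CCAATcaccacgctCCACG
Pdia6: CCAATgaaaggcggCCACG
Dnajc3: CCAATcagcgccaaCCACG
Creld2: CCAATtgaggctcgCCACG
Syvn1: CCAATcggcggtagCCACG

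The 2 copies in Hsp90b1 lie at chr10:86705638-86705656 and chr10:86705533-86705551, and that of Hspa5 at chr2:34772025-34772043, where it begins 65 bases upstream of the RefSeq start site. The composite element read by ATF4 with C/EBP factors (searched on both strands as TGATG, any base, then AA) occurred in 9 of 19 ATF4 side genes, in 1 of 17 ER chaperone side genes (Herpud1) and in 3.97% of all promoters. The 9 genes were Atf3, Nupr1, Trib3, Chac1, Asns, Slc7a11, Vldlr, Aars and Gars, with 11 copies. No promoter of the set held both elements. The GENCODE M21 spans of Hspa5 and Atf3, given below, begin upstream of the RefSeq start sites, so the elements of both genes lie inside these spans. Of the 38 promoters of the set, 32 had bases 11 to 40 after the start site in a GENCODE M21 transcript of the gene. Atf4, Ddit3 and Ppp1r15a were searched and held neither element. A gene without a match lacks only these letters in this window.

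The 250 bases upstream of the RefSeq start site are given for 4 genes that hold an element, on the strand of the gene. They are Atf3 at chr1:191183334-191183583 (reverse strand), Chac1 at chr2:119350992-119351241 (forward strand), Hspa5 at chr2:34771840-34772089 (forward strand) and Hsp90b1 at chr10:86705445-86705694 (reverse strand). Capitals mark the fixed letters of the elements, which read as their reverse complement where the element lies on the opposite strand, as in Atf3, in Chac1 and in the downstream copy of Hsp90b1.
Atf3: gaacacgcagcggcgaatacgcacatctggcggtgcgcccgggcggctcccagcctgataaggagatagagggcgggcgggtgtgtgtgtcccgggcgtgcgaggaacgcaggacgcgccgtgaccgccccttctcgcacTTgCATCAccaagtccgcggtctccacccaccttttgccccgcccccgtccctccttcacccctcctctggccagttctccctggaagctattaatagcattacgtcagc
Chac1: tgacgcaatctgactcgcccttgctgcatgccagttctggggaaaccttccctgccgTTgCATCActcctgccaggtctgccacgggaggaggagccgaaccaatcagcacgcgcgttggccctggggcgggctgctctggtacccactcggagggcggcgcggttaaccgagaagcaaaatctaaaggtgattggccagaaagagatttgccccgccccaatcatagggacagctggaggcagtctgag
Hspa5: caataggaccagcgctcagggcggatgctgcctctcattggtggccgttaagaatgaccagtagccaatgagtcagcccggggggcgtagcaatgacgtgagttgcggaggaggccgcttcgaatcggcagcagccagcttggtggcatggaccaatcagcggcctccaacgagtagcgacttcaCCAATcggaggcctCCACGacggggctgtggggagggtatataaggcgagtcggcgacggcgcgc
Hsp90b1: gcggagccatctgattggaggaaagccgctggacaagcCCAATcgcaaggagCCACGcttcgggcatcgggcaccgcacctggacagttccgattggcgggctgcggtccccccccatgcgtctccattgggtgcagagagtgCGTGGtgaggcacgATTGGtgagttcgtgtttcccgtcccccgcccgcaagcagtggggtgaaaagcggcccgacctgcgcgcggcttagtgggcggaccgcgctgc

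On the ATF4 side, most genes were lowest in the library labelled CD95ko 2, and a smaller group led by Atf3, Ppp1r15a and Ddit3 was low in both CD95ko libraries. On the ER chaperone side, Hspa5 was lower in both CD95ko libraries, while most other chaperone and degradation genes were level or modestly higher. No gene of the set reached an adjusted p under 0.05 in limma when the 2 CD95ko libraries were compared with the 2 controls, where 0.0537% of all genes tested did (6 of 11167). At an unadjusted p under 0.05, 6 of 21 ATF4 side genes were lower and 0 higher, against 5.68% of all genes lower and 9.25% higher. The corresponding counts on the ER chaperone side were 1 lower and 2 higher of 19. The 6 lower ATF4 side genes became 3 without the variance trend, 3 without control 1, 3 without control 2, 3 without the library labelled CD95ko 2 (with 2 higher) and 15 without the library labelled CD95ko 1. On the ER chaperone side the 3 genes became 0 without control 2. Under quantile normalization there were 4 lower and 0 higher on the ATF4 side and 2 and 2 on the ER chaperone side, and the split over all genes went from 634 lower and 1033 higher to 895 lower and 967 higher. In a bulk profile, fewer cells expressing a gene and less RNA per cell cannot be told apart.

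**Figure D1:**
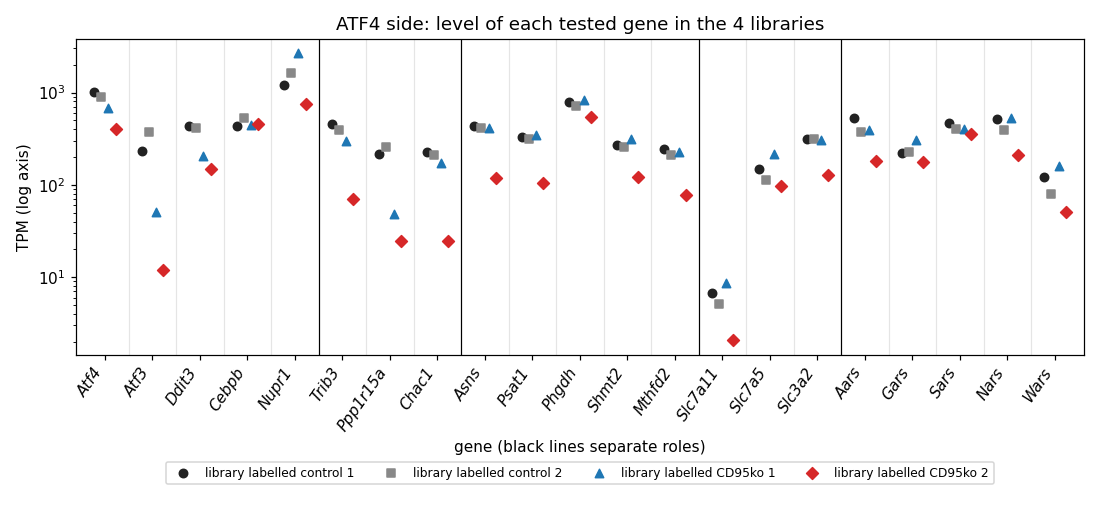
TPM on a log axis of the 21 tested ATF4 side genes in the 4 libraries, 1 point per library, with black lines between roles. The library labelled CD95ko 2 (red diamonds) is the lowest for 20 of the 21 genes (30.4% of all genes tested), and the 2 CD95ko points lie below both controls for 8 genes (18.3% of all genes tested).

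Atf4, the factor that gives this part its name (chromosome 15, 80255184 to 80257541 in GENCODE M21, GRCm38), was at 1014 and 896 TPM in the controls, at 673 TPM in the library labelled CD95ko 1 and at 401 TPM in the library labelled CD95ko 2. Both CD95ko values lay below both controls, by 0.87 ± 0.32 SE on the log2(TPM + 1) scale on average (limma adjusted p = 0.266). Ddit3, which encodes the pro-apoptotic factor CHOP, showed the same order, with 438 and 413 TPM in the controls against 206 and 149.6 TPM in the libraries labelled CD95ko 1 and 2 (log2 difference -1.27 ± 0.30 SE, limma adjusted p = 0.144). Here the CD95ko libraries stood close to each other, at 48.3% and 35.1% of the control mean.

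Atf3, a stress-induced repressor and activator of the ATF family (chromosome 1, 191170296 to 191218039), had the largest difference of the set on the log2 scale. It was at 235 and 376 TPM in the controls, at 50.3 TPM in the library labelled CD95ko 1 and at 12.1 TPM in the library labelled CD95ko 2. The groups did not overlap, with a log2 difference of -3.53 ± 0.59 SE and a limma adjusted p of 0.0676. The library labelled CD95ko 2 was at 3.95% of the control mean and the library labelled CD95ko 1 at 16.5%.

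The remaining factors of the group did not follow this order. Cebpb, the C/EBP partner of ATF4, was between 431 and 535 TPM in all 4 libraries, with overlapping groups. Of its transcript stretches of 25 bases, 20.9% also occur in other genes, mostly in the overlapping Tmem189. Nupr1, a small stress-induced chromatin protein, was at 1192 and 1638 TPM in the controls, highest in the library labelled CD95ko 1 (2665 TPM) and lowest in the library labelled CD95ko 2 (753 TPM). The CD95ko libraries thus lay on opposite sides of both controls for Nupr1, and the mean log2 difference was 0.02 ± 0.52 SE (limma adjusted p = 0.989).

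All 3 feedback and redox regulators were lower in both CD95ko libraries without overlap, beside 18.3% of all genes tested. Ppp1r15a encodes GADD34, the phosphatase subunit that removes phosphate from eIF2 alpha. It was at 216 and 259.9 TPM in the controls, at 48.2 TPM in the library labelled CD95ko 1 and at 24.5 TPM in the library labelled CD95ko 2. The CD95ko libraries were at 20.3% and 10.3% of the control mean. The log2 difference was -2.75 ± 0.39 SE with a limma adjusted p of 0.0594, the smallest of the set.

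Trib3, a pseudokinase that restrains ATF4 and AKT signalling, was at 451 and 390.4 TPM in the controls, 298 TPM in the library labelled CD95ko 1 and 71.2 TPM in the library labelled CD95ko 2 (log2 difference -1.52 ± 0.57 SE, limma adjusted p = 0.268). Chac1, which degrades glutathione and is a late target of the ATF4 and CHOP arm, was at 227 and 213 TPM in the controls, 171 TPM in the library labelled CD95ko 1 and 24.4 TPM in the library labelled CD95ko 2 (log2 difference -1.74 ± 0.72 SE, limma adjusted p = 0.307). For both genes the library labelled CD95ko 1 was only modestly below the controls, at 70.9% and 77.6% of their mean, while the library labelled CD95ko 2 was at 16.9% and 11.1%.

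The enzymes of asparagine, serine and one-carbon synthesis were near control level in the library labelled CD95ko 1. Asns, asparagine synthetase and a classic ATF4 target, was at 435 and 411 TPM in the controls and at 409.8 TPM in the library labelled CD95ko 1, against 119 TPM in the library labelled CD95ko 2. Psat1, the transaminase of serine synthesis, was at 327 and 310.3 TPM in the controls and at 344 and 104 TPM in the libraries labelled CD95ko 1 and 2. Mthfd2, a mitochondrial folate enzyme, was at 242 and 210.5 TPM in the controls and at 227 and 77.0 TPM in the same order. For these 3 genes the library labelled CD95ko 2 alone stood apart, at 28.0%, 32.7% and 34.1% of the control mean.

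Shmt2, which makes glycine and a one-carbon unit from serine in mitochondria, was at 269 and 256 TPM in the controls, 312 TPM in the library labelled CD95ko 1 and 123 TPM in the library labelled CD95ko 2. Phgdh, the first enzyme of serine synthesis, differed less, at 794 and 708 TPM in the controls, 822 TPM in the library labelled CD95ko 1 and 539 TPM in the library labelled CD95ko 2. Of the Phgdh stretches of 25 bases, 59.0% also occur in other genes, mostly in the pseudogene Gm7901, so its value is uncertain. Summed over the 5 enzymes, the libraries held 2066 and 1896 TPM in the controls, 2115 TPM in the library labelled CD95ko 1 and 962 TPM in the library labelled CD95ko 2.

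Among the transporters, Slc3a2, the heavy chain shared by several amino acid exchangers, was at 315 and 314 TPM in the controls, 309 TPM in the library labelled CD95ko 1 and 129 TPM in the library labelled CD95ko 2. Its light chain partner for leucine uptake, Slc7a5, was at 148 and 113 TPM in the controls and at 217 and 98.2 TPM in the libraries labelled CD95ko 1 and 2. Slc7a11, the cystine importer, was weakly expressed throughout, with 6.77 and 5.08 TPM in the controls, 8.62 TPM in the library labelled CD95ko 1 and 2.08 TPM in the library labelled CD95ko 2. All 3 transporters were lowest in the library labelled CD95ko 2, and none of the 3 had an unadjusted limma p under 0.05.

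The 5 tRNA synthetases, which load amino acids onto tRNA, were all lowest in the library labelled CD95ko 2. Aars (alanine) was at 531 and 377 TPM in the controls and at 392 and 181 TPM in the libraries labelled CD95ko 1 and 2, and Nars (asparagine) was at 511 and 393 TPM against 533 and 209 TPM. Wars (tryptophan), which interferon also induces, was at 123 and 80.5 TPM in the controls and at 159 and 51.0 TPM in the libraries labelled CD95ko 1 and 2. Gars (glycine) and Sars (serine) differed by less, with CD95ko 2 values at 80.1% and 81.5% of the control mean. Of the Aars stretches of 25 bases, 15.3% also occur in other genes.

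**Figure D2:**
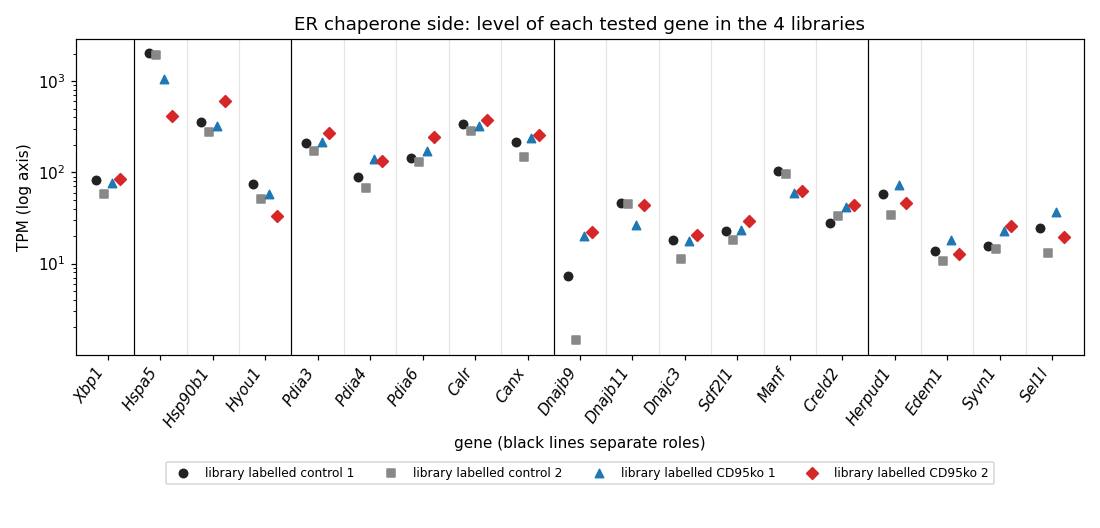
TPM on a log axis of the 19 tested ER chaperone side genes in the 4 libraries, 1 point per library, with black lines between roles. Hspa5 is highest in both controls, at 2018 and 1914 TPM, and lowest in the library labelled CD95ko 2 at 415 TPM, where Hsp90b1 reaches its highest value of 601 TPM.

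Hspa5, which encodes BiP, the HSP70 chaperone of the ER lumen that also holds the stress sensors inactive (chromosome 2, 34771970 to 34777547), was the chaperone of the set that differed most downwards. It was at 2018 and 1914 TPM in the controls, at 1050.4 TPM in the library labelled CD95ko 1 and at 415 TPM in the library labelled CD95ko 2. The groups did not overlap, with a log2 difference of -1.57 ± 0.41 SE and a limma adjusted p of 0.161. The library labelled CD95ko 1 was at 53.4% of the control mean and the library labelled CD95ko 2 at 21.1%.

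Hsp90b1, which encodes GRP94, the HSP90 of the ER lumen (chromosome 10, 86690209 to 86705509), lay the other way in the library labelled CD95ko 2, and its promoter holds the same element as that of Hspa5, shown above. It was at 359 and 278 TPM in the controls, 320.1 TPM in the library labelled CD95ko 1 and 601 TPM in the library labelled CD95ko 2 (log2 difference 0.47 ± 0.36 SE, limma adjusted p = 0.570). Hspa5 exceeded Hsp90b1 in TPM by 5.63 and 6.89 times in the controls and by 3.28 times in the library labelled CD95ko 1, while in the library labelled CD95ko 2 its level was 0.692 times that of Hsp90b1. This ratio was chosen after the values had been seen and carries no test. Of the Hsp90b1 stretches of 25 bases, 13.5% also occur in other genes, mainly in the antisense gene 1810014B01Rik.

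Hyou1, a further HSP70-like chaperone and exchange factor for BiP, was at 75.4 and 51.5 TPM in the controls, 57.6 TPM in the library labelled CD95ko 1 and 33.1 TPM in the library labelled CD95ko 2, with overlapping groups. The disulfide isomerases, which form and reshuffle disulfide bonds, lay the other way. Pdia4 was at 88.8 and 67.4 TPM in the controls and at 141 and 134 TPM in the libraries labelled CD95ko 1 and 2 (log2 difference 0.82 ± 0.32 SE, limma adjusted p = 0.283). Pdia6 was at 145 and 131 TPM in the controls against 171 and 244 TPM, and Pdia3 at 207 and 169.7 TPM against 214 and 266 TPM. In all 3 genes both CD95ko values lay above both controls (29.2% of all genes tested). Control 2 was the lowest library for each (44.2% of all genes tested).

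The lectin chaperones Calr and Canx, which hold glycoproteins during folding, differed by less than 0.5 on the log2 scale. Canx did not overlap between the groups (218 and 146 TPM in the controls, then 238 TPM for CD95ko 1 and 254 TPM for CD95ko 2), and Calr did (337 and 286 TPM against 323 and 370.2 TPM). Xbp1, the factor made active by IRE1 splicing, was at 83.1 and 58.1 TPM in the controls and at 76.2 and 85.0 TPM in the libraries labelled CD95ko 1 and 2, with overlapping groups (log2 difference 0.21 ± 0.35 SE, limma adjusted p = 0.824). Gene-level Xbp1 does not separate the spliced form.

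Dnajb9, an ER J protein that brings BiP to the sensor IRE1 and is a typical XBP1 target, had the largest positive difference of the set. It was at 7.29 and 1.45 TPM in the controls and at 20.2 and 22.0 TPM in the libraries labelled CD95ko 1 and 2. The groups did not overlap, the log2 difference was 2.29 ± 0.66 SE and the limma adjusted p was 0.184. The CD95ko libraries stood close together, the controls were 1.76 apart on the log2 scale, and 13.0% of the Dnajb9 stretches of 25 bases also occur in the pseudogene Gm6568.

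Manf, a secreted ER stress factor, was lower in both CD95ko libraries (60.0 and 62.7 TPM against 103 and 97.1 TPM in the controls, log2 difference -0.70 ± 0.32 SE, limma adjusted p = 0.355). Creld2, a further secreted ER protein, lay above the controls in both (42.1 and 44.1 TPM against 28.1 and 32.9 TPM). Dnajb11, a BiP cochaperone, was at 46.0 and 44.7 TPM in the controls and at 26.5 TPM in the library labelled CD95ko 1, but at 44.1 TPM in the library labelled CD95ko 2. Dnajc3, the cochaperone that also inhibits eIF2 alpha kinases, and Sdf2l1, which keeps client proteins soluble, were between 11.1 and 29.6 TPM in all libraries.

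Of the 4 genes of ER-associated degradation, Syvn1, the ubiquitin ligase that marks misfolded proteins, was higher in both CD95ko libraries without overlap (22.7 and 25.6 TPM against 15.8 and 14.3 TPM). Its partner Sel1l, the scaffold protein Herpud1 and the mannose-trimming factor Edem1 were highest in the library labelled CD95ko 1, at 36.5, 72.6 and 17.9 TPM, and the groups overlapped for all 3. The 4 genes had unadjusted limma p-values between 0.17 and 0.562.

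**Figure D3:**
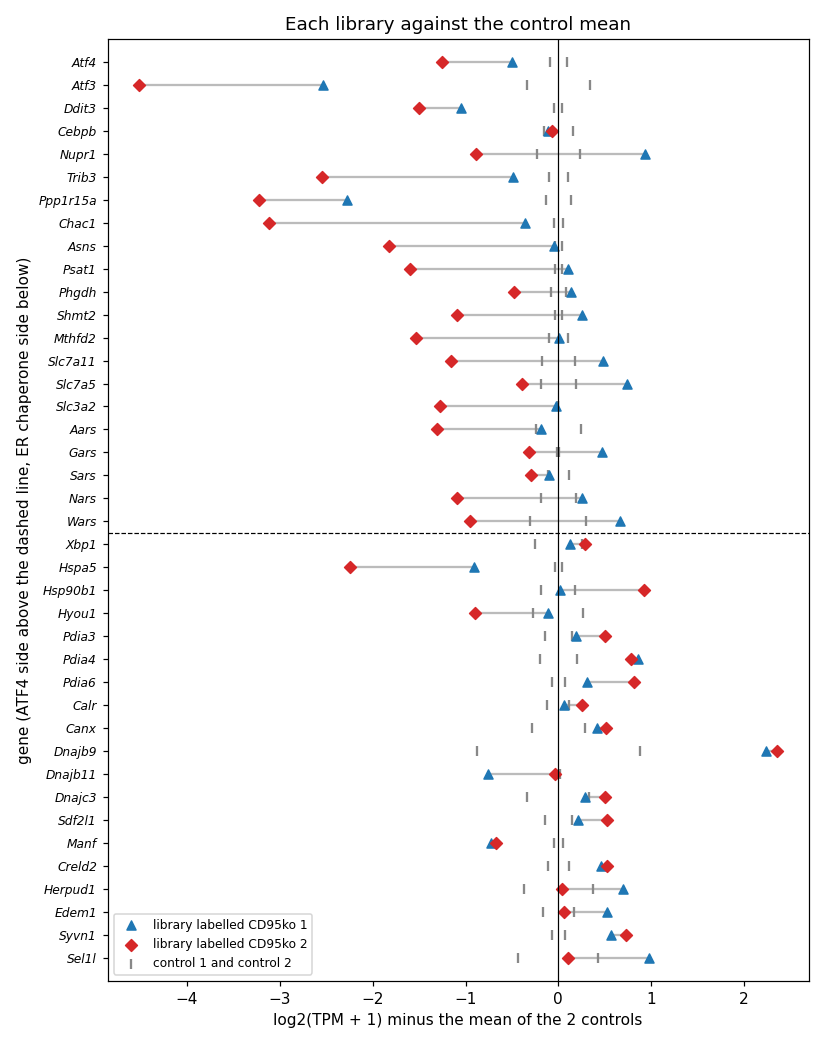
Difference in log2(TPM + 1) of the libraries labelled CD95ko 1 (blue triangles) and CD95ko 2 (red diamonds) from the mean of the 2 controls, whose own values are the grey ticks, for the 40 tested genes. On the ATF4 side the blue points gather near 0 (median -0.03) and the red points lie below it (median -1.25), and Atf3, Ddit3, Ppp1r15a and Hspa5 have both points below -0.9.

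The 2 CD95ko libraries were set beside the controls one at a time, as both comparisons share the controls. On the ATF4 side the median difference from the control mean was -0.03 in the library labelled CD95ko 1 and -1.25 in the library labelled CD95ko 2, beside 0.19 and 0.10 over all genes tested. The library labelled CD95ko 2 was the lowest of the 4 for 20 of 21 ATF4 side genes and for 2 of 19 ER chaperone side genes, where it was the lowest for 30.4% of all genes. It was at least 2-fold below the control mean for 14 of the 21 genes (13.8% of all genes), and the library labelled CD95ko 1 for 3 of the 21 (6.51% of all genes), namely Atf3, Ddit3 and Ppp1r15a. In the library labelled CD95ko 1, 9 of 21 ATF4 side genes had their highest value, beside 28.3% of all genes.

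The ER chaperone side had median differences of 0.28 in the library labelled CD95ko 1 and 0.50 in the library labelled CD95ko 2. The groups did not overlap for 8 of 19 genes in the higher direction (Pdia3, Pdia4, Pdia6, Canx, Dnajb9, Sdf2l1, Creld2 and Syvn1) and for 3 in the lower direction (Hspa5, Dnajb11 and Manf). Over all genes tested these shares were 29.2% and 18.3%, so the share of lower genes, 15.8%, was near the background. On the ATF4 side 0 genes were higher without overlap and 8 of 21 were lower, namely Atf4, Atf3, Ddit3, Trib3, Ppp1r15a, Chac1, Asns and Slc3a2. Control 2 was the lowest library for 14 of 19 ER chaperone side genes, beside 44.2% of all genes, and its median over the genes tested was 16.3 TPM against 21.3 to 22.9 TPM in the other libraries.

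**Figure D4:**
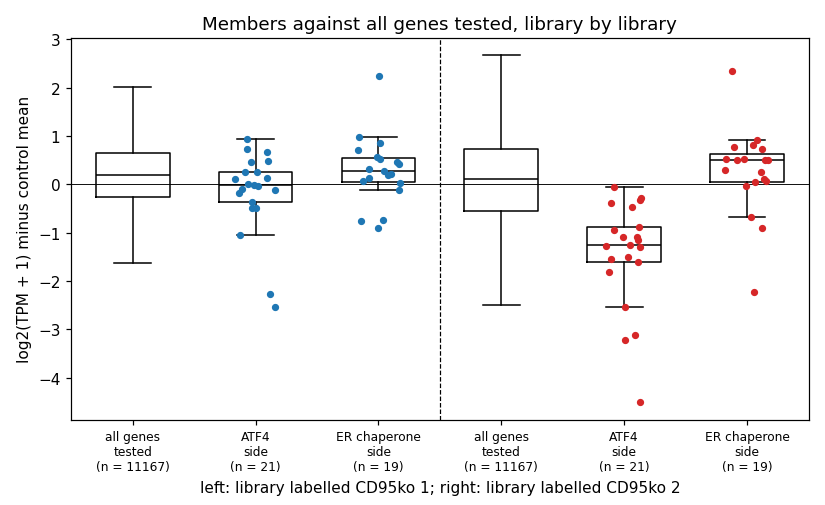
Difference in log2(TPM + 1) from the control mean for all 11167 genes tested, the 21 ATF4 side genes and the 19 ER chaperone side genes, in the library labelled CD95ko 1 (left) and CD95ko 2 (right). Boxes show the median and quartiles, whiskers reach to 1.5 times the interquartile range, and points are single genes; the ATF4 side median is -1.25 on the right and -0.03 on the left.

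Leaving out a library changed the calls. Against both controls, the library labelled CD95ko 2 alone had 13 of 21 ATF4 side genes lower at a limma adjusted p under 0.05 (4.86% of all genes), together with Hspa5 (adjusted p = 0.000124). The library labelled CD95ko 1 alone had 2 of 21 lower, Atf3 (adjusted p = 0.000505) and Ppp1r15a (adjusted p = 0.001), beside 1.16% of all genes. Each such fit has a lone CD95ko library, which is assumed to vary as the pair of controls does, and describes that clone. Whether the clones differ from each other could not be tested with 1 library of each.

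Further genes of the pathway, in lists written by function, were read from the same fit, and 0 of them reached an adjusted p under 0.05. Counts without overlap in these lists stand beside 29.2% higher and 18.3% lower over all genes tested. Of the 10 sensors and eIF2 alpha kinases, 2 were higher and 3 lower without overlap, with a median difference of -0.03. Among them, Eif2ak3 (the kinase PERK) was at 6.28 and 3.16 TPM in the controls and at 10.0 and 13.8 TPM in the libraries labelled CD95ko 1 and 2. Ern1 (IRE1) was at 16.9 and 9.78 TPM against 6.29 and 8.22 TPM, and Atf6 at 35.8 and 32.7 TPM against 22.6 and 19.8 TPM. The groups did not overlap for these 3 sensors, PERK being the higher and the other two the lower in the CD95ko libraries, and the unadjusted limma p-values were 0.0622, 0.189 and 0.13.

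The 24 tested further ATF4 targets had a median difference from the control mean of 0.30 in the library labelled CD95ko 1 and of -0.99 in the library labelled CD95ko 2, which was the lowest library for 16 of them (30.4% of all genes). Without overlap, 2 of the 24 were higher and 3 lower, both smaller shares than over all genes, and the 3 genes with the smallest p-values were among them. Psph, the last enzyme of serine synthesis, was at 113 and 119.6 TPM in the controls and at 53.2 and 27.2 TPM in the libraries labelled CD95ko 1 and 2. Cebpg, a C/EBP partner of ATF4, was at 90.2 and 74.5 TPM against 40.3 and 17.3 TPM. Ddit4, an inhibitor of mTORC1 that hypoxia, glucocorticoids and p53 also induce, lay the other way, at 212 and 181 TPM against 1114 and 719 TPM (log2 difference 2.19 ± 0.31 SE, limma adjusted p = 0.0594).

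The 7 further cytosolic tRNA synthetases had median differences of 0.28 and 0.11 in the libraries labelled CD95ko 1 and 2. For the 5 in the set these were 0.25 and -0.95. The 7 are not all the remaining synthetases, as Cars, Lars, Mars, Iars, Tars, Yars, Eprs and Vars were listed among the further ATF4 targets. Kars (lysine) was at 209.7 and 205 TPM in the controls and at 323 and 391 TPM in the libraries labelled CD95ko 1 and 2, and Qars (glutamine) at 103 and 101 TPM against 186 and 188 TPM. Farsb (phenylalanine) was at 105 and 96.3 TPM against 78.8 and 45.9 TPM. Of the 7 genes, 4 were higher and 1 was lower without overlap, the latter near the background of 18.3%.

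Of 20 further ER folding genes, 6 were higher and 2 lower without overlap, near or below the 29.2% and 18.3% of all genes, and their median difference was 0.22. Among the 8 were P4hb, the main disulfide isomerase (316 and 239.7 TPM in the controls, then 420.3 TPM for CD95ko 1 and 495 TPM for CD95ko 2), and Ppib, a prolyl isomerase (940.4 and 1292 TPM against 802 and 426 TPM). Of 14 further degradation genes, 5 were higher and 1 lower without overlap (29.2% and 18.3% of all genes), while their median difference was -0.15. Os9, a lectin that delivers glycoproteins to the ligase complex, was at 41.4 and 28.9 TPM against 63.2 and 122 TPM, and Ube2g2, a ubiquitin-conjugating enzyme, at 264 and 219 TPM against 78.8 and 85.9 TPM. Of 20 translocation and secretion genes, 2 were higher and 4 lower without overlap, the higher share under and the lower share near that of all genes, with a median difference of 0.03.

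The chaperones of other compartments were read for comparison. Of 11 cytosolic heat shock genes, 4 were higher and 0 lower without overlap (29.2% and 18.3% of all genes). Their median difference was 0.38 in the library labelled CD95ko 1 and -0.05 in the library labelled CD95ko 2, which was the lowest for 5 of the 11. Hsp90ab1, the constitutive cytosolic HSP90, was at 1994 and 1844 TPM in the controls against 3814 and 5501 TPM for CD95ko 1 and 2. Hspa8, the constitutive cytosolic HSP70, was at 985 and 913 TPM against 1493 and 3042 TPM in the same order. Hspa1b, of the same list, was at 36.8 and 20.1 TPM against 83.7 and 89.9 TPM. Of 9 mitochondrial chaperone and protease genes, 0 were higher and 3 lower without overlap (29.2% and 18.3% of all genes), and 8 were lowest in the library labelled CD95ko 2 (30.4% of all genes). The mitochondrial chaperonin subunits Hspd1 (756 and 798 TPM against 618 and 277 TPM) and Hspe1 (707 and 888 TPM against 465 and 300.4 TPM) were both lower in the CD95ko libraries, with limma adjusted p-values of 0.318 and 0.187.

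With 2 libraries a group, small differences could not be called. In simulated data for the 11167 genes, limma recovered 0.5% of 200 genes given a log2 difference of 1. It recovered 55.5% of 200 given one of 2 and 98.5% of 200 given one of 4. In the same data it made 3, 15 and 17 false calls, beside the 1, 111 and 197 changed genes recovered. The simulated spread was the one that the limma fit gave each gene. The smallest p of an exact two-sided permutation test for any gene is 0.333 here. A p that misses the threshold does not show that a level was the same in both groups.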

How the data were processed

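The 4 tables of gene-level TPM analysed here were deposited by the authors, 1 per library. TPM was computed by the authors, per the file headers, and scales reads for transcript length and to a common sum, so read depth is not kept and no counting interval can be given. STAR 2.6.0, RSEM 1.3.0 and the build mm10 are named in the submitters' processing notes. The annotation is not given in the sources used here. Groups came from the sample titles.

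Genes with at least 1 TPM in at least 2 libraries were compared on log2(TPM + 1) with limma 3.58.1 in R 4.3.3 (mean-variance trend, two-sided, Benjamini-Hochberg adjustment over 11167 genes, threshold 0.05). A difference is CD95ko minus control and understates that of weakly expressed genes. P-values and SE rest on the spread between the 2 libraries of a group, which are different lines or clones per the labels' protocols. The limma fit draws the spread of each gene towards a trend over all genes tested. For genes whose CD95ko libraries lie far apart, such as Chac1 and Trib3, the SE is therefore smaller than their own spread would give. The fit was tested on simulated data. The planned count test was not applicable to TPM.

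The members and lists were chosen with earlier results of these data known. All members could be named. From each further list up to 3 genes with the smallest p-value were eligible, with Eif2ak3, Ern1 and Atf6. Counts of the lowest or highest library were chosen after the values had been seen. Promoters came from RefSeq (GRCm38.p6), gene spans and shared 25-base stretches (both strands, 141767 transcripts) from GENCODE M21. Alternatives were a pseudocount of 0.1, no filter, no trend, quantile normalization, a replicate block, robust eBayes and leaving out each library.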

Additional observations from a re-analysis of the deposited data

How the results depend on the processing

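Of the 240 values of members with all 4 libraries (40 genes, 6 settings), 239 kept their direction and side of the threshold. No filter, no trend, the replicate block and robust eBayes leave the difference of each gene unchanged. Only the pseudocount and quantile normalization could therefore have changed a direction. The exception was Ppp1r15a, which passed under robust eBayes (limma adjusted p = 0.0258), so that 1 ATF4 side gene was called there. The number of all genes past the threshold, 6 as reported, fell to 0 for a pseudocount of 0.1, to 0 with no filter, to 0 with no trend and to 0 under quantile normalization, and was 52 under robust eBayes. At an unadjusted p under 0.05 these settings gave 1553, 1636, 1531, 1862 and 1706 genes, against 1667. Quantile normalization moved the median difference of all genes from 0.13 to 0.002, and the medians from -0.65 to -0.61 on the ATF4 side and from 0.37 to 0.26 on the ER chaperone side. Same-numbered libraries are not pairs (deviations of same-numbered libraries correlated at -0.081 over genes). With the replicate block 2 genes passed and 0 members, and the medians stayed at -0.65 and 0.37, which this block cannot change.

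Leaving out 1 library at a time gave 0 to 1034 genes past the threshold, 0 to 13 on the ATF4 side and 0 to 1 on the ER chaperone side. The ATF4 side median ranged from -1.25 to -0.03 (the latter without the library labelled CD95ko 2) and the ER chaperone side median from 0.13 (without control 2) to 0.51. Genes without overlap numbered 8 to 20 lower and 0 to 9 higher on the ATF4 side, and 3 to 4 lower and 8 to 15 higher on the ER chaperone side, where fewer libraries make overlap rarer. The sign of 12 members changed in 1 or more of these fits, and no fit with the changed sign passed the threshold: Nupr1 (-0.89 to 0.93), Wars (-0.95 to 0.67), Cebpb (-0.24 to 0.067), Slc7a5 (-0.39 to 0.74), Xbp1 (-0.046 to 0.46), Gars (-0.32 to 0.47), Psat1 (-1.60 to 0.11), Phgdh (-0.47 to 0.13), Shmt2 (-1.09 to 0.25), Mthfd2 (-1.54 to 0.011), Slc7a11 (-1.16 to 0.48), Nars (-1.10 to 0.25). The cause of these changes was not tested.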
